A study of Rattus norvegicus with 2 samples.

Results

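Genes that carry fatty acids into the cell and burn them were compared between the esophagus of rats treated with OSU-HDAC42 and that of rats treated with vehicle alone. OSU-HDAC42 is an inhibitor of histone deacetylases, the enzymes that take acetyl groups off histones and other proteins. The group was a fixed list of 33 genes, and where several probe sets were annotated to a gene alone, the one brightest on average stood for it. Such a probe set was found for 32 of the 33 genes, out of 14217 genes on the array, and 28 of the 32 were above an expression floor on 1 or both arrays. That floor, an intensity of 49.1, is the middle value of the geometric means that all probe sets but the controls had over both arrays.

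The OSU-HDAC42 sample came from male Sprague-Dawley rats, an outbred laboratory strain, aged 5 to 6 weeks when obtained, that received 7 gavage doses of 50 mg/kg to a total of 350 mg/kg. The vehicle sample came from rats of the same strain, sex and age given vehicle on the same schedule, and both tissues were collected on day 15, 24 hours after dosing ended. Each group had 1 Affymetrix Rat Genome 230 2.0 array. The labels do not say how many rats an array stands for, which layers of the esophagus were taken, or what the vehicle was.

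With 1 array per group no difference below has a replicate error or a p-value. The only measure of noise was the disagreement between probe sets of the same gene, a root mean square difference of 0.41 on the log2 scale over 3643 pairs in 2126 genes, which covers probe noise alone. A difference is always on the log2 intensity scale, the OSU-HDAC42 sample minus the vehicle sample. The OSU-HDAC42 array had a median intensity of 48.4 outside the controls, and the vehicle array 49.1. The 3' over 5' intensity ratio, a measure of RNA integrity, was 2.09 for GAPDH in the OSU-HDAC42 sample and 2.32 in the vehicle sample, 6.29 and 7.76 for beta-actin, and 7.18 and 5.66 for hexokinase.

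Long-chain fatty acids enter cells with the help of membrane and binding proteins and are joined to coenzyme A. The carnitine shuttle then moves the acyl groups through the mitochondrial membranes, and the beta-oxidation cycle shortens them by repeated dehydrogenation, hydration, dehydrogenation and thiolysis. Electrons of the first step leave through the electron transfer flavoprotein, and unsaturated fatty acids need auxiliary isomerases and a reductase before they can be finished. Skeletal muscle, which forms the outer coat of the rat esophagus, is a heavy user of this pathway and has its own forms of some of its proteins.

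Most of the pathway stood at nearly the same level in both samples, and the largest differences lay in 2 auxiliary or tissue-specific enzymes. Eci1, a mitochondrial enoyl-CoA isomerase, was 2.67-fold lower and Cpt1b, the muscle form of carnitine palmitoyltransferase, was 2.04-fold lower in the OSU-HDAC42 sample. These were the 2 of 28 members above the floor that were at least 2-fold lower, 7.14% of the members, where 3.18% of the 9561 genes above the floor were. No member was 2-fold higher, where 1.88% of all genes were. At 1.5-fold, 3 members (10.7%) were lower, close to the 10.9% of all genes, and 0 were higher, against 7.59% of all genes.

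By direction, 16 of the 28 were lower, 11 higher and 1 equal, and the median difference was -0.092, beside -0.027 over all genes above the floor, of which 52.8% were lower. For 24 of the 28 members (85.7%) the difference was smaller than the 0.41 by which probe sets of 1 gene disagree, and 68.2% of all genes lay within that bound. The SD of the members' differences was 0.39, against 0.48 over all genes above the floor. Of the 28, 23 had their higher array at or over the 75th percentile of mean intensities, where the SD of all genes was 0.43. Neither the SD nor the share within 0.41 was matched for brightness.

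**Figure D1:**
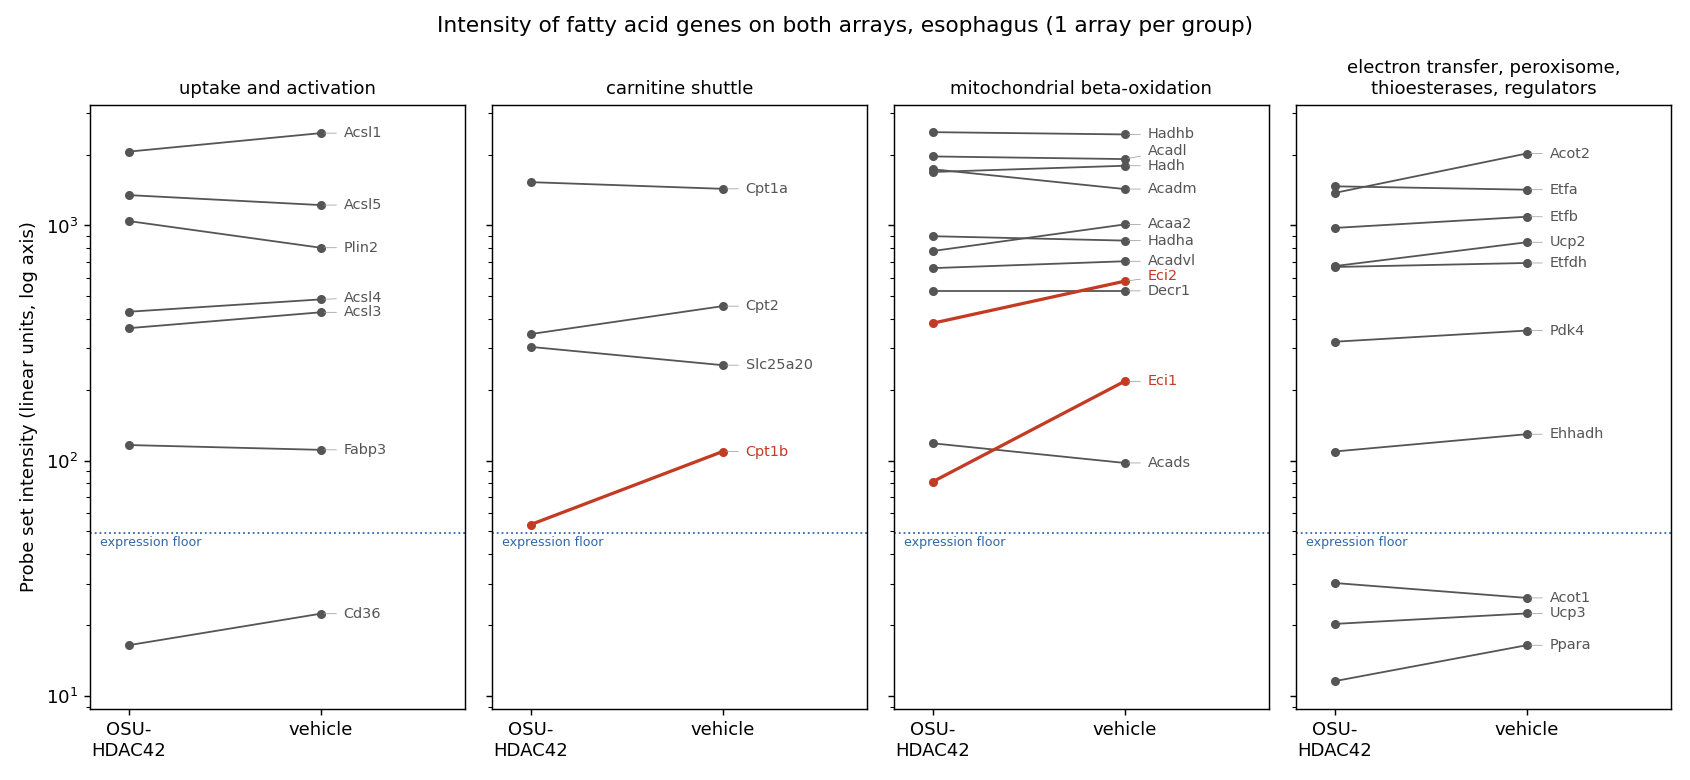
Probe set intensity (linear units on a log axis) of the 32 measured fatty acid genes on the OSU-HDAC42 array (left of each panel) and the vehicle array (right), with 1 line per gene and 1 array per group. Red lines mark the genes lower by 1.5-fold or more, Eci1, Cpt1b and Eci2, and the dotted line marks the expression floor of 49.1; of the other genes above the floor Acot2 differs most (-0.56), and the rest lie between -0.39 and 0.38.

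The gene furthest from equality was Eci1. Its product shifts double bonds so that unsaturated fatty acids can continue through the beta-oxidation cycle. Eci1 had an intensity of 81.3 in the OSU-HDAC42 sample and 217 in the vehicle sample, a difference of -1.42. Only 0.973% of the genes above the floor had a lower difference. The other Eci1 probe set read 9.31 and 7.36, under the floor on both arrays, so the difference rests on 1 probe set.

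Eci2 encodes a second enoyl-CoA isomerase, found in mitochondria and peroxisomes. It read 384 in the OSU-HDAC42 sample and 579 in the vehicle sample, a difference of -0.59 that just passed 1.5-fold. With each array centred on its median it was -0.57, short of 1.5-fold, and with quantile normalization Acot2 passed 1.5-fold as well (-0.59), so the number of members past it was 2 and 4 under these scalings. A probe set annotated to both Eci2 and the related isomerase gene Eci3 read 1234 in the OSU-HDAC42 sample and 1148 in the vehicle sample, a difference of 0.10 in the other direction. The probe set of Eci3 alone differed by 0.050. The shared reading cannot be assigned to 1 of the genes, so the direction for Eci2 rests on 1 probe set. Decr1, the dienoyl-CoA reductase that works beside these isomerases, read 527 on both arrays, one of 963 probe sets outside the controls whose 2 deposited values were identical.

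The promoters of the isomerase genes are shown because these genes had the lowest differences within the mitochondrial beta-oxidation step. Each is the RefSeq window from 250 bases before to 50 bases after the annotated gene start in the GRCr8 rat assembly, written 5′ to 3′ along the gene. Capitals mark AGGTCA, the hexamer bound by many nuclear receptors, here read on the opposite strand as TGACCT. The Eci1 window is chr10:13961000-13961299 on the + strand, with the hexamer starting at base 157 of the window. The Eci2 window is chr17:30075516-30075815 on the + strand, with the hexamer starting at base 268.
Eci1: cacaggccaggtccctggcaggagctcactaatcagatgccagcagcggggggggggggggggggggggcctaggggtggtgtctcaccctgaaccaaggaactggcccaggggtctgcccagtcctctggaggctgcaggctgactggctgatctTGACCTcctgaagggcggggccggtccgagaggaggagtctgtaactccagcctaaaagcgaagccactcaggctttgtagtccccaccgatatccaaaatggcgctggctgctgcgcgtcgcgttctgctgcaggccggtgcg
Eci2: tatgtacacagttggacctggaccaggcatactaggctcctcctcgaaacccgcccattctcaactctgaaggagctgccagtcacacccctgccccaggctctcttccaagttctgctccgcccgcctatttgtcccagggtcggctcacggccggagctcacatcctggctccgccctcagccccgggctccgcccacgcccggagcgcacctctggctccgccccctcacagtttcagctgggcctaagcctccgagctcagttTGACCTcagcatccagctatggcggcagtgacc

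Across both strands, AGGTCA was in 5 of the 30 promoter windows matched to 29 of the 33 genes (16.7%), namely those of Acadvl, Eci1, Eci2, Hadhb and Ucp3, and in 16.2% of all 33469 windows. The share among the members was close to that of all windows, though 30 windows are few for comparing shares. A direct repeat of AGGNCA with 1 base (N) between the copies, the form bound by PPAR receptors, was in 0 of the members' windows and in 0.415% of all windows. The extended hexamer TCAAGGTCA, bound by estrogen-related receptors, was in 0 of the members' windows and in 0.433% of all windows. Sequences this rare would seldom fall in 30 windows, so the counts of 0 cannot set the members apart from other genes. Cpt1b, Acaa2, Acadl and Decr1 had no window in the table. These matches describe letters in short windows and not binding.

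The carnitine shuttle showed a split between the tissue forms of its first enzyme. Cpt1b read 53.5 in the OSU-HDAC42 sample and 109 in the vehicle sample, a difference of -1.03, and 2.81% of genes above the floor had a lower one. Cpt1a, the form of liver and many other tissues, read 1528 in the OSU-HDAC42 sample and 1432 in the vehicle sample, a difference of 0.094. The muscle form was thus lower while the common form was nearly equal, although the 2 differences could not be tested against each other. Cpt1b had only 1 probe set, and its OSU-HDAC42 reading was close to the floor of 49.1. With quantile normalization the Cpt1b difference was -0.998, just short of 2-fold.

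The later parts of the shuttle went opposite ways by small amounts. Slc25a20, the carrier that exchanges acylcarnitine for carnitine across the inner membrane, read 305 in the OSU-HDAC42 sample and 255 in the vehicle sample (difference 0.26). Cpt2, which returns the acyl group to coenzyme A inside the mitochondrion, read 345 in the OSU-HDAC42 sample and 454 in the vehicle sample (difference -0.39). Both differences were smaller than the disagreement between probe sets.

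**Figure D2:**
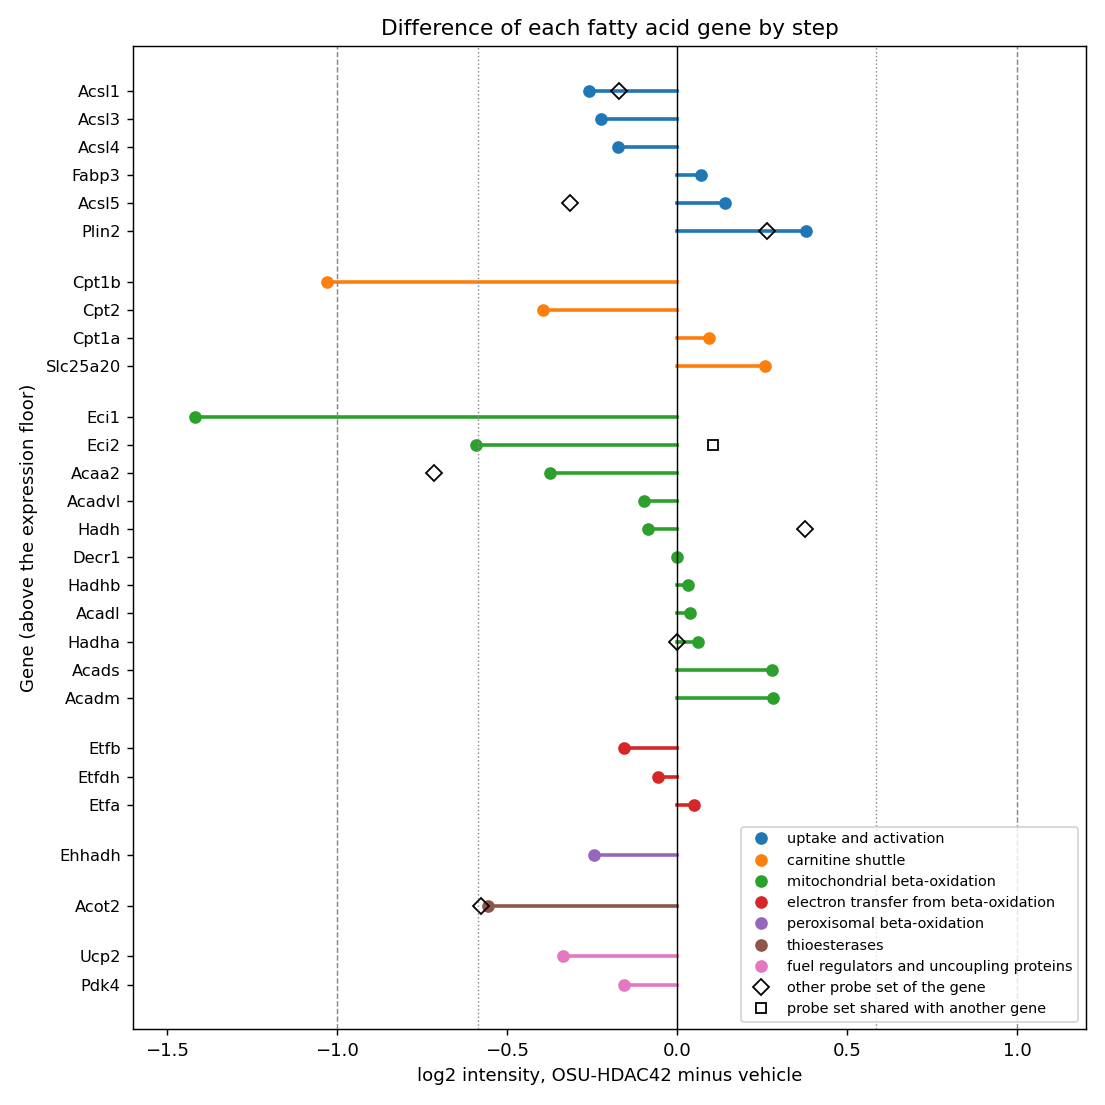
Log2 intensity in the OSU-HDAC42 sample minus the vehicle sample (x axis) for the 28 fatty acid genes above the expression floor (y axis), coloured by step, with 1 array per group. Filled circles are the probe set used, open diamonds other probe sets of the same gene and the open square the probe set shared by Eci2 and Eci3; dashed lines mark 2-fold and dotted lines 1.5-fold, and only Eci1 and Cpt1b lie beyond a dashed line.

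Uptake and activation genes differed little. Of 7 listed, 6 were above the floor, 3 higher and 3 lower, with a median of -0.053. Plin2, which coats lipid droplets and marks stored fat, had the highest difference of all members at 0.38, with 1044 in the OSU-HDAC42 sample and 804 in the vehicle sample. Its other probe set read 891 in the OSU-HDAC42 sample and 743 in the vehicle sample, a difference of 0.26 in the same direction. Fabp3, the fatty acid binding protein of heart and skeletal muscle, read 117 in the OSU-HDAC42 sample and 111 in the vehicle sample (difference 0.068).

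The acyl-CoA synthetases attach coenzyme A to long-chain fatty acids, and 3 of their 4 genes were lower by small amounts. Acsl1, the main synthetase of fat, liver and heart, read 2061 in the OSU-HDAC42 sample and 2470 in the vehicle sample (difference -0.26), and a second probe set above the floor gave -0.17. Acsl3, found on lipid droplets, read 366 in the OSU-HDAC42 sample and 427 in the vehicle sample (difference -0.22). Acsl4, which prefers arachidonic acid, read 430 in the OSU-HDAC42 sample and 485 in the vehicle sample (difference -0.17). For Acsl5 the probe sets went apart, the one used reading 1346 in the OSU-HDAC42 sample and 1221 in the vehicle sample (difference 0.14), and the other differing by -0.31, so no direction can be given for it.

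Cd36, the membrane receptor for long-chain fatty acids, could not be read on its own probe set, which stood at 16.4 in the OSU-HDAC42 sample and 22.3 in the vehicle sample, both under the floor. A probe set annotated to Cd36 together with the related gene Cd36l1 was bright, at 1514 in the OSU-HDAC42 sample and 1793 in the vehicle sample, a difference of -0.24. The annotation does not tell which of the genes that reading belongs to.

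The core enzymes of the mitochondrial cycle were nearly level. The 11 mitochondrial genes with the 3 electron transfer genes had a median of -0.028. The summed intensity of these 14 genes was 14440 in the OSU-HDAC42 sample and 14777 in the vehicle sample. Leaving out Eci1 and Eci2, a choice made after their values were seen, 6 of the remaining 12 were higher and 5 lower, and their differences ran from -0.38 to 0.28. Their summed intensity was 13974 in the OSU-HDAC42 sample and 13980 in the vehicle sample.

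The 4 acyl-CoA dehydrogenases start the cycle on chains of decreasing length. Acadvl, for very long chains, read 659 in the OSU-HDAC42 sample and 704 in the vehicle sample (difference -0.097). Acadl, for long chains, read 1966 in the OSU-HDAC42 sample and 1916 in the vehicle sample (difference 0.037). These readings were almost the same in both samples, and the sign for Acadl turned with quantile normalization (-0.0059). The enzymes for shorter chains stood slightly higher. Acadm, for medium chains, read 1734 in the OSU-HDAC42 sample and 1428 in the vehicle sample (difference 0.28). Acads, for short chains, read 118 in the OSU-HDAC42 sample and 97.8 in the vehicle sample (difference 0.28).

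The trifunctional protein carries out the later reactions on long chains, and both of its subunits were level. Hadha, the alpha subunit, read 900.1 in the OSU-HDAC42 sample and 862 in the vehicle sample (difference 0.062), and its other probe set above the floor was exactly equal. Hadhb, the beta subunit, read 2494 in the OSU-HDAC42 sample and 2438 in the vehicle sample (difference 0.032). Hadh, the hydroxyacyl-CoA dehydrogenase of shorter chains, read 1688 in the OSU-HDAC42 sample and 1795 in the vehicle sample (difference -0.088), while its other probe set differed by 0.38. Acaa2, a thiolase of the last reaction, was lower on both of its probe sets. It read 779 in the OSU-HDAC42 sample and 1010 in the vehicle sample (difference -0.38), and 57.6 and 94.5 on the dimmer set (difference -0.71).

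Electron transfer genes did not exceed 0.16 in either direction. Etfa and Etfb encode the subunits of the flavoprotein that takes electrons from the acyl-CoA dehydrogenases. Etfa read 1467 in the OSU-HDAC42 sample and 1419 in the vehicle sample (difference 0.048). Etfb read 976 in the OSU-HDAC42 sample and 1089 in the vehicle sample (difference -0.16). Etfdh, which passes the electrons on to ubiquinone, read 666 in the OSU-HDAC42 sample and 693 in the vehicle sample (difference -0.057).

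Peroxisomes shorten very long chains before mitochondria take over. Ehhadh, one of their bifunctional enzymes, read 109 in the OSU-HDAC42 sample and 130 in the vehicle sample (difference -0.24). Acaa1a, a peroxisomal thiolase, is the member without a probe set of its own. The set annotated to both Acaa1a and its close paralog Acaa1b read 119 in the OSU-HDAC42 sample and 162 in the vehicle sample, a difference of -0.45.

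Acyl-CoA thioesterases release the fatty acid from coenzyme A again. Acot2, the mitochondrial thioesterase, read 1375 in the OSU-HDAC42 sample and 2022 in the vehicle sample, a difference of -0.56 (1.47-fold lower). A second bright probe set read 1020 in the OSU-HDAC42 sample and 1522 in the vehicle sample, a difference of -0.58, so the brightest readings of this gene gave the same size. Of the 7 members with several probe sets above the floor, 4 went 1 way on all of them, and on the probe sets used Acot2 had the largest difference among those 4, although the dimmer set of Acaa2 differed more (-0.71). Its cytosolic paralog Acot1 read 30.2 in the OSU-HDAC42 sample and 26.1 in the vehicle sample, under the floor. Acot1 and Acot2 are paralogs, and the probe set annotated to both read under 16 on both arrays.

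Among regulators, Ppara, the nuclear receptor that drives many of these genes in liver and muscle, read 11.5 in the OSU-HDAC42 sample and 16.4 in the vehicle sample, too low to compare. Pdk4, a kinase that shuts off glucose oxidation when fatty acids are used, read 320.3 in the OSU-HDAC42 sample and 357 in the vehicle sample (difference -0.16). Ucp2, a mitochondrial carrier of many tissues, read 672 in the OSU-HDAC42 sample and 848 in the vehicle sample (difference -0.34). Ucp3, its relative in skeletal muscle, read 20.2 in the OSU-HDAC42 sample and 22.4 in the vehicle sample, under the floor.

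**Figure D3:**
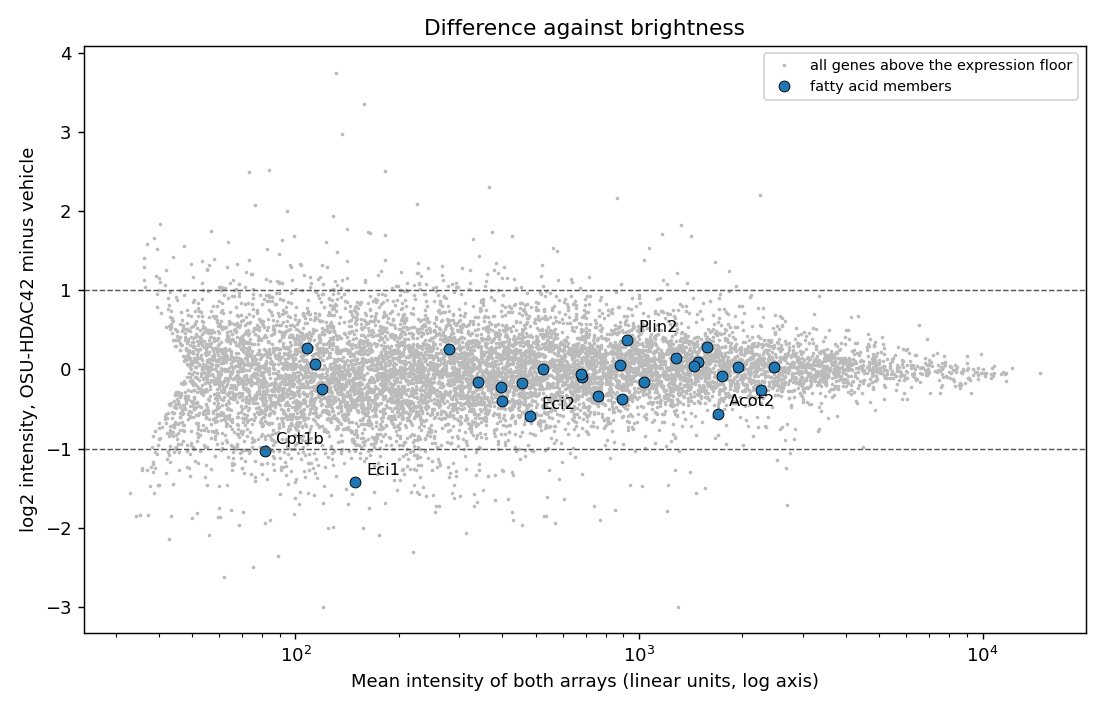
Log2 intensity in the OSU-HDAC42 sample minus the vehicle sample (y axis) against the mean intensity of both arrays (x axis, log scale) for all 9561 genes above the expression floor (grey) and the 28 fatty acid genes (blue), 1 array per group. Dashed lines mark 2-fold; Eci1 and Cpt1b, beyond the lower line, are among the dimmer members.

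Dim genes scattered more widely than bright ones. Only 5 members, Acads, Cpt1b, Eci1, Ehhadh and Fabp3, had their higher array under the 75th percentile of mean intensities (277), and both genes that were 2-fold lower were among these 5. Among all genes in that dimmer range the SD of differences was 0.55 and 4.66% were 2-fold lower. Among genes at or above it the SD was 0.43 and 2.13% were 2-fold lower, and there 0 of 23 members were.

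Skeletal muscle markers were lower in the same sample as Cpt1b and Eci1. All 26 listed markers of skeletal muscle were above the floor and lower in the OSU-HDAC42 sample, 17 of them at least 2-fold, with a median of -1.39. Their summed intensity was 22232 in the OSU-HDAC42 sample and 45261 in the vehicle sample, and no marker was at 0. Cacna1s reached the floor on the vehicle array alone (32.8 in the OSU-HDAC42 sample, 61.2 in the vehicle sample) and so was lower by construction. The largest differences were those of Actn3, the alpha-actinin of fast fibres (-2.09), Ampd1, the AMP deaminase of muscle (-2.07), the giant protein Ttn (-1.94) and the myosin-binding protein Mybpc1 (-1.85). In a tissue sample, fewer muscle cells and less RNA per muscle cell cannot be told apart. The part of these markers in the Cpt1b and Eci1 differences was not tested.

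The members known as forms of muscle did not share 1 difference. Cpt1b stood at -1.03 and Fabp3 at 0.068, with Ucp3 under the floor. The kinase gene Pdk4, which is not a muscle form, stood at -0.16. Without Cpt1b, Fabp3, Ucp3 and Pdk4 the median of the members was -0.088 over 25 genes.

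Markers of other cell types differed in other ways, with sums taken over the markers above the floor. The 10 smooth muscle markers were all higher, beside 4469 of the 9561 genes above the floor. The median of the markers was 0.61, with Synpo2 highest (2.83-fold). The summed intensity of the markers was 17258 in the OSU-HDAC42 sample and 11643 in the vehicle sample. Of 12 endothelial markers above the floor 9 were lower (median -0.45), with Vwf lowest at -0.95, and the sums were 3518 in the OSU-HDAC42 sample and 3730 in the vehicle sample. Vwf reached the floor on the vehicle array alone (44.3 in the OSU-HDAC42 sample, 85.8 in the vehicle sample) and so was lower by construction. Of 10 macrophage markers above the floor 7 were higher (median 0.22), with Mrc1 highest (519 in the OSU-HDAC42 sample and 259 in the vehicle sample), and the sums were 2046 in the OSU-HDAC42 sample and 1769 in the vehicle sample. Lower by any amount were 75% of these endothelial and 20% of these macrophage markers, beside 52.8% of all genes above the floor. Squamous epithelium markers, which define this tissue, had a median of -0.068 over 12 genes but the widest spread of these lists (SD 0.87), from Itgb4 at -1.28 and Evpl at -0.69 to Krt10 at 1.04 and Sprr1b at 2.21, with sums of 59040 in the OSU-HDAC42 sample and 59104 in the vehicle sample.

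Fat cells, another heavy holder of fatty acid genes, left little trace. Of 12 measured adipocyte markers 8 were under the floor on both arrays, beside 4656 of all 14217 genes. The defining adipokine gene Adipoq read 14.3 in the OSU-HDAC42 sample and 14.6 in the vehicle sample, and the lipid droplet gene Plin1 read 9.25 on both arrays. The 4 markers above the floor were Gpd1 (-1.25), Fabp4 (-0.70), Lipe (-0.11) and Cidea (0.27). Gpd1 reached the floor on the vehicle array alone (28.9 in the OSU-HDAC42 sample, 68.8 in the vehicle sample) and so was lower by construction. The sums of the 4 were 792 in the OSU-HDAC42 sample and 767 in the vehicle sample, of which Cidea alone gave 637 and 529. Of 6 hepatocyte markers 5 were under the floor on both arrays. Serpina1 reached the floor on the vehicle array alone (36.4 in the OSU-HDAC42 sample, 49.3 in the vehicle sample) and so was lower by construction.

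**Figure D4:**
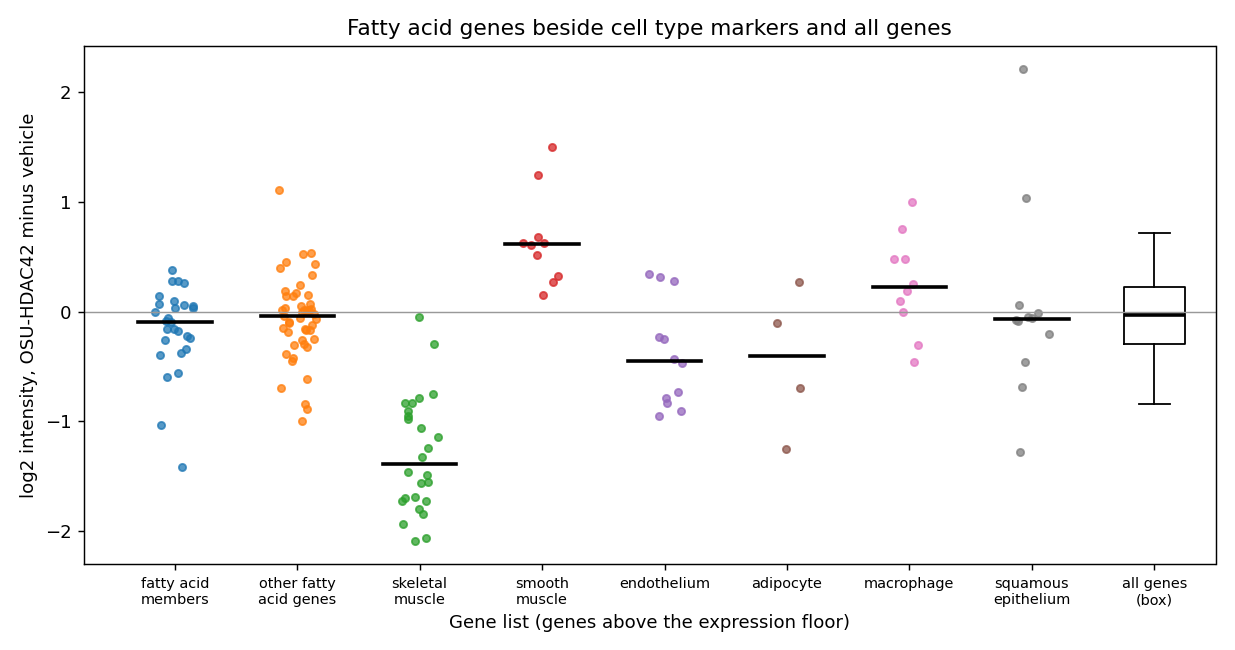
Log2 intensity in the OSU-HDAC42 sample minus the vehicle sample (y axis) for genes above the expression floor in each list (x axis), 1 point per gene, black bar at the list median; the box at the right gives the quartiles of all 9561 genes with whiskers at the 5th and 95th percentiles. The fatty acid members centre on -0.092, near all genes (-0.027), whereas skeletal muscle markers centre on -1.39 and smooth muscle markers on 0.61.

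A wider list of 78 other fatty acid genes, covering transport, lipolysis, peroxisomes, ketone bodies and transcription regulators, had 72 measured and 47 above the floor. Of the 47, 21 were higher and 25 lower, with a median of -0.041. At 1.5-fold 1 was higher and 5 were lower, beside 7.59% and 10.9% of all genes above the floor, so the lower count was near the background. Lower by any amount were 53.2% of the 47, beside 52.8% of all genes above the floor.

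The higher gene was Slc27a1, a fatty acid transport protein of muscle and fat. It read 869.7 in the OSU-HDAC42 sample and 403 in the vehicle sample, a difference of 1.11 (2.16-fold) on its only probe set. Pex7, the receptor that brings peroxisomal thiolase and other proteins into peroxisomes, read 118 in the OSU-HDAC42 sample and 235 in the vehicle sample (difference -0.996). Mgll, which splits monoglycerides, read 53.1 in the OSU-HDAC42 sample and 98.4 in the vehicle sample (difference -0.89), but another of its probe sets above the floor differed by 0.28. The direction for Mgll thus depends on the probe set.

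The remaining genes past 1.5-fold were lower. Slc27a3, a relative of Slc27a1 with acyl-CoA synthetase activity, read 124 in the OSU-HDAC42 sample and 222 in the vehicle sample (difference -0.84). Fabp4, the fatty acid binding protein of fat cells, macrophages and endothelium, read 61.2 in the OSU-HDAC42 sample and 99.4 in the vehicle sample (difference -0.70). Acad10, a member of the acyl-CoA dehydrogenase family, read 147 in the OSU-HDAC42 sample and 226 in the vehicle sample (difference -0.62).

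By subgroup, 8 of 11 peroxisomal genes above the floor (72.7%) were lower, beside 52.8% of all genes above the floor. The median of the peroxisomal genes was -0.13, with Pex7 as the only one past 1.5-fold. The others differed by less than the 0.41 by which probe sets of 1 gene disagree. Of 12 transport, binding and lipolysis genes, 5 were higher and 7 lower. Among the 8 other mitochondrial acyl-CoA enzymes, 5 were higher and 3 lower (median 0.022). Of 8 transcription regulators 6 were under the floor on both arrays, beside 4656 of all 14217 genes.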

How the data were processed

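The deposited values are linear probe set intensities, judged from their range. The tools listed per the submitters' processing notes are GCOS and RMA, whose role, order and version, like the scaling of the arrays to each other, are not given in the sources used here. Of 31042 non-control probe sets, 20826 carried 1 gene symbol in the platform annotation, 436 several and 9780 none. Intensities under 16 were raised to 16 before log2, with no further normalization. All 32 measured members matched RefSeq by gene ID, and 2 listed symbols were matched through another symbol. Counts at 2-fold and 1.5-fold used genes whose higher array reached the floor. With 1 array per group no test was made, and the number of arrays limits the precision.

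The members, lists and tests were chosen with earlier results of these data known. All members are named; of the wider list, genes past 1.5-fold; of marker lists, at most 4 of the largest differences. Defining markers Adipoq, Plin1 and Serpina1 are given beside that rule. Alternatives covered raised values, scaling, probe set choice and the floor. Python 3.11.15, pandas 2.3.3 and statsmodels 0.14.6 were used, and the code was tested on simulated data.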

Additional observations from a re-analysis of the deposited data

How the results depend on the processing

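Across the alternatives run, 35 of the counts and medians over the members stayed within 1.5 times of the main count or within the probe set spread of the main median, and 4 moved. The median of the members ran from -0.12 to -0.071, and the number of lower members from 16 to 18. The count past 2-fold, 2 in the main setting, was 1 with quantile normalization, 1 with the median over the probe sets of a gene and 0 with the floor at the 75th percentile. That floor also brought the count past 1.5-fold to 1, against 3, by construction, since it removed Cpt1b and Eci1. The count past 1.5-fold was 2 with each array centred and 4 with quantile normalization. Many values could not move, so these tallies do not measure stability. Every member above the floor read over 32 on both arrays. Leaving values unraised or raising them to 32 therefore left those members, their counts and their median as they were. Genes with 1 probe set were likewise fixed under the median or mean over probe sets. Of single-gene values 252 moved by less than the probe set spread, 3 moved by more, and 1 that had passed 1.5-fold changed sign. Small differences also changed sign within that spread: Acsl5 to -0.087 and Hadh to 0.14 with the median or mean over their probe sets, and Acadl to -0.0059 with quantile normalization, while Decr1, equal on both arrays, took either sign with the scaling. Allowing probe sets shared by several genes, an alternative chosen after seeing the data, let the set shared with Eci3 stand for Eci2 (0.10). Eci1 stood at -0.71 with the median over its probe sets, 1 of which was under the floor, while Cd36 and Ppara moved with the raised values, by construction. For the other settings the cause was not tested. No paired analysis was possible because there was a single array in each group. Dim probe sets leave Cd36, Acot1, Ppara and Ucp3 without a usable difference.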
